A study of Homo sapiens with 112 samples.

Results

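The cholesterol module described here comprised 30 genes that make cholesterol from acetyl-CoA units, sense its level or move it in and out of the cell. The rule lists the genes by name for their known roles in the pathway, and the list was made with earlier results of these data known. Of the 58684 genes in the count table, 19266 had at least 10 reads in at least 4 VCaP libraries and 18204 in at least 4 LAPC4 libraries, and these were tested. All 30 module genes were among the tested genes in both cell lines. They fall into 8 enzymes of the mevalonate and isoprenoid steps, 12 enzymes from squalene to cholesterol, 5 genes of SREBP control and 5 genes of sterol transport, uptake control and efflux.

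Cells build cholesterol by joining acetyl-CoA units into mevalonate, turning mevalonate into isoprenoids, and joining the isoprenoid chains by way of squalene into the sterol rings. SREBP transcription factors, held in the endoplasmic reticulum by SCAP and INSIG proteins while sterols are plentiful, travel to the Golgi when sterols are scarce, are cut there, and switch on the genes of synthesis and uptake. Sterol excess works through the liver X receptors instead, which raise the exporters ABCA1 and ABCG1 and the ligase MYLIP. In prostate cancer cells, androgen is known to raise lipid and sterol synthesis.

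RNA was sequenced from VCaP and LAPC4 cells, both human prostate cancer lines that depend on the androgen receptor. All groups shared 2 days of starvation in medium with 10% charcoal-stripped serum, which removes steroid hormones, and were then treated for 8 or 22 h with the vehicle DMSO, with 1 nM of the synthetic androgen R1881, or with 1 nM R1881 together with 500 nM or 2 µM of the receptor antagonist darolutamide. No group received darolutamide without R1881. For VCaP cells at 22 h there were 8 libraries with DMSO, 9 with R1881, 4 with 500 nM (low dose) and 5 with 2 µM (high dose), and at 8 h there were 10, 10, 4 and 5. LAPC4 cells at 22 h gave 7 libraries with DMSO, 10 with R1881 and 5 with each dose, while the 8 h groups held 10, 10, 5 and 5. Each line stands for 1 tumor, the methods name fewer biological replicates per condition than the DMSO and R1881 groups hold libraries, and the labels do not say which libraries came from separate cultures, so that p-values measure the spread between these libraries, which may be technical. Because RNA was taken from whole cultures, a change in RNA per cell and a change in the share of cells that express a gene cannot be told apart.

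The 112 libraries held 12870607 to 25125789 counted reads in VCaP and 12188455 to 25201678 in LAPC4 cells. ERG, which the TMPRSS2 fusion of VCaP cells places under androgen control, had 1578 to 21554 reads in VCaP and 0 to 1 in LAPC4 libraries, which matches the line names. The androgen target FKBP5, a receptor co-chaperone, rose with R1881 at 22 h by 5.49 on the log2 scale in VCaP and 1.36 in LAPC4 cells. The 4 epithelial markers summed to 971 to 2460 CPM (counts scaled to the library total) in VCaP and 1710 to 2060 in LAPC4 libraries, with group means of 1010 to 2050 and 1800 to 1950. All 4 epithelial markers rose with R1881 in VCaP cells at 22 h (median log2 fold change 1.02) and fell when 2 µM darolutamide was added (-0.84), and edgeR called none of the 4 in LAPC4 cells in either comparison (medians -0.057 and 0.05). The 3 leukocyte markers summed to at most 0.145 and 0.4 CPM, and the 3 fibroblast markers to at most 2.47 and 1.32 CPM, with 1 of the 2 fibroblast markers tested in VCaP cells lower with R1881 at 22 h. The 3 endothelial markers summed to at most 3.16 and 3.43 CPM, and VWF, the 1 of them that was tested, rose with R1881 at 22 h by 2.68 in VCaP and 0.96 in LAPC4 cells. The part of these markers in the results for the 30 genes was not tested.

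The promoters of 7 genes are shown because known regulators of the module bind in such regions. They were picked after the values and the windows were seen. STARD4, INSIG1 and IDI1 had the 3 largest rises with R1881 in VCaP cells at 22 h, and NSDHL, the rise that ranks 7, is shown for its 5 CCAAT boxes. SREBF1, the rise that ranks 5, is shown because its window holds no box, SREBF2 as the gene of the main SREBP factor, and ABCA1 as the gene with the largest fall. RefSeq (GRCh38.p14) gave windows from 250 bases before to 50 bases after the start for 26 of the 30 genes. Capitals mark the CCAAT box bound by NF-Y, a factor that works beside SREBP, searched as CCAAT on both strands (read as ATTGG on the opposite one), and the core of the sterol regulatory element, searched as TCACNCCAC on both strands.
STARD4 (chr5:111512486-111512785, minus strand): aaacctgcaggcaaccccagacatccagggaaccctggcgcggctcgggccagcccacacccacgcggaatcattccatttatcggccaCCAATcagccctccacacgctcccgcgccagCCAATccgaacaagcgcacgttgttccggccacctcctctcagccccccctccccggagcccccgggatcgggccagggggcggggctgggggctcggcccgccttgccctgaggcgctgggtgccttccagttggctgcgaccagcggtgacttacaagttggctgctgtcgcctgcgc
INSIG1 (chr7:155297628-155297927, plus strand): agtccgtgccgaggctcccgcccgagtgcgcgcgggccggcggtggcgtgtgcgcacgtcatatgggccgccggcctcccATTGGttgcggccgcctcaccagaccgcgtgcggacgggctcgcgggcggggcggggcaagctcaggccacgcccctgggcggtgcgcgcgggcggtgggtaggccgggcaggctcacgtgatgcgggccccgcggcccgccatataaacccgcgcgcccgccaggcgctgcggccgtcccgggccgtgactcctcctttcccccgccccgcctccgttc
IDI1 (chr10:1048837-1049136, minus strand): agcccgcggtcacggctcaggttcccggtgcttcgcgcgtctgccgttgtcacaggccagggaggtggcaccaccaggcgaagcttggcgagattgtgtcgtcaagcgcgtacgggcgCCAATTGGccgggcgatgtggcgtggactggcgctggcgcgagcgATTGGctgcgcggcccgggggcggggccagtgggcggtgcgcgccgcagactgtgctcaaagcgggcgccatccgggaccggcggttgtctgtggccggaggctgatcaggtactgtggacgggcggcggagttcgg
NSDHL (chrX:152830813-152831112, plus strand): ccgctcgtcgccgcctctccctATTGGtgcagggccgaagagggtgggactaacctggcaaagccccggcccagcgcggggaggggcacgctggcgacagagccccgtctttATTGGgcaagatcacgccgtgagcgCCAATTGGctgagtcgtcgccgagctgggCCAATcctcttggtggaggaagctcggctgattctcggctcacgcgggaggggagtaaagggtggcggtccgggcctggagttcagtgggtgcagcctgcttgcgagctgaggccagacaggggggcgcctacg
SREBF1 (chr17:17836937-17837236, minus strand): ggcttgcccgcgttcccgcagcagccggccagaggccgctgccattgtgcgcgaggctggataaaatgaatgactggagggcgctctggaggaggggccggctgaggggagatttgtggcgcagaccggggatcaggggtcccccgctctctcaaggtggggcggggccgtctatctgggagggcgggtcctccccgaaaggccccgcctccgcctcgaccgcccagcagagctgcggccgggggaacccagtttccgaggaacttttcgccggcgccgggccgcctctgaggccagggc
SREBF2 (chr22:41832855-41833154, plus strand): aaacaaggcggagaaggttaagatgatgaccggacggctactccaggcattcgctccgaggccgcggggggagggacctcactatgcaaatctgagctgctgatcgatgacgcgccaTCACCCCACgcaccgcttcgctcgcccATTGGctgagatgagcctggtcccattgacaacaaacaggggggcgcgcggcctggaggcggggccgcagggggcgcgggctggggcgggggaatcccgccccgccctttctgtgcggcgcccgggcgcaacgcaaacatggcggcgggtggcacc
ABCA1 (chr9:104928106-104928405, minus strand): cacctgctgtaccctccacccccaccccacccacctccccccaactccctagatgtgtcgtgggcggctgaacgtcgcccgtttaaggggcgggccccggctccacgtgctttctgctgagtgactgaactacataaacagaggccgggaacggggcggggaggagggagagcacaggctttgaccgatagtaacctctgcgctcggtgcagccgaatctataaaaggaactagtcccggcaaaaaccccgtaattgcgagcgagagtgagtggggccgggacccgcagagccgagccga

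The NSDHL window held 5 CCAAT boxes, the IDI1 window shown 3 (the most of its 3 windows), the STARD4 window 2, and the INSIG1 and SREBF2 windows 1 each. Pairs of boxes in the IDI1 and NSDHL windows overlap, because CCAATTGG reads as a box on both strands. The SREBF1 and ABCA1 windows held none. Of the 26 module genes with a window, 18 (69.2%) held a CCAAT box in at least 1 window, against 39.7% of all 27305 genes in the promoter table, and 12 (46.2%) held 2 or more boxes in a window, against 12.9% of all genes. Of the 18 genes with a box, R1881 raised 16 in VCaP cells at 22 h (up in 37.4% of all genes tested). TM7SF2 and MYLIP were not called. Of the 8 genes without a box R1881 raised 5 (SREBF1, CYP51A1, NPC1, SCAP and PMVK). It lowered LBR and ABCA1 (down in 40% of all genes tested), and INSIG2 was not called. FDFT1, ACAT2, SQLE and ABCG1, which have no window, rose as well. The shares of calls among all genes with and without a box were not computed, and a link between box and rise was not tested. The sterol regulatory core occurred once, in SREBF2, 133 bases before the start, and was found in 1.39% of all genes. The androgen receptor half-site AGAACA, also searched on both strands, occurred in 1 of the 26 genes (PMVK), against 17.5% of all genes. A further motif that was searched, the GC box GGGCGG of the factor Sp1, occurred in 24 of the 26 genes (92.3%), against 48.3% of all genes. Whether the base composition of the windows bears on these counts was not tested. These counts describe exact matches to the searched letters in a 300-base window. They say nothing of elements that differ from those letters or of sites farther away.

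The first comparison asked how the module responded to androgen in VCaP cells. After 22 h, R1881 raised 25 of the 30 genes (up in 37.4% of all genes tested) and lowered 2 (down in 40%). Here and throughout, calls are those of the quasi-likelihood test of edgeR at an adjusted p under 0.05 (Benjamini-Hochberg over all genes tested), and fold changes are on the log2 scale. The median log2 fold change of the 30 genes was 1.17, against -0.034 for all genes. In 22 of the 30 genes every R1881 library lay above every DMSO library, as in 23.4% of all genes tested, and in ABCA1 every R1881 library lay below, as in 23.3% of all genes. Rises were found in all 8 mevalonate and isoprenoid enzymes, in 10 of 12 enzymes from squalene on, in 4 of 5 SREBP control genes and in 3 of 5 transport genes.

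**Figure D1:**
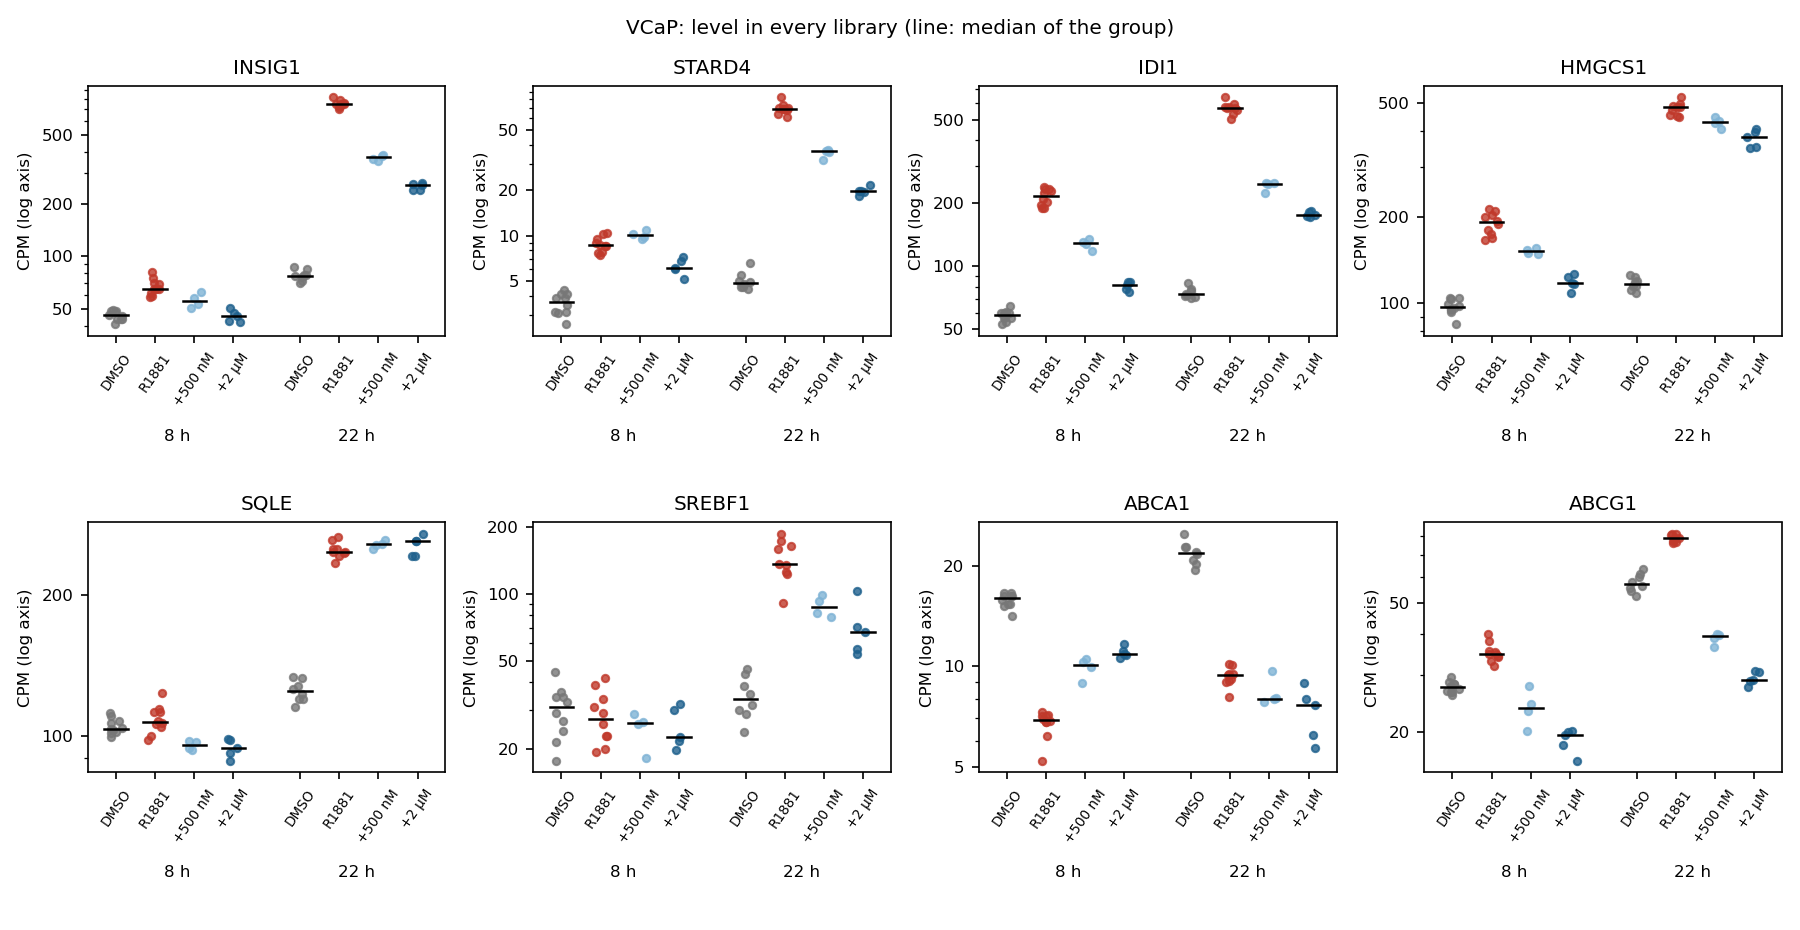
Level of 8 genes in every VCaP library, in CPM on a log axis, by treatment and time, with the group median as a line. INSIG1 rose from a median of 77.4 with DMSO to 752 with R1881 at 22 h, SQLE libraries with 2 µM darolutamide for 22 h overlapped those with R1881 alone, and ABCA1 lay below DMSO in all R1881 groups.

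Among the mevalonate and isoprenoid enzymes, IDI1, which interconverts the activated isoprene units, responded most. It was at 70.9 to 82.9 CPM, with a median of 73.4, in DMSO and at 504 to 639.8 CPM, with a median of 569, in R1881 libraries at 22 h. The groups lay far apart, and IDI1 rose 7.60-fold, a log2 fold change of 2.93 (SE 0.048, adjusted p = 7.6e-49). HMGCS1, the synthase that makes HMG-CoA, was at 109 to 126 CPM, with a median of 117, in DMSO and at 449 to 525 CPM, with a median of 485, in R1881 libraries. Again no library of one group reached the other, and the log2 fold change was 2.03 (SE 0.045, adjusted p = 4.04e-42). FDPS, the farnesyl diphosphate synthase, went from 48.0 to 54.0 CPM, with a median of 51.2, to 147 to 163 CPM, with a median of 155, without overlap, a log2 fold change of 1.59 (SE 0.038, adjusted p = 2.07e-40). The kinase MVK and the decarboxylase MVD rose by 1.66 and 1.63, though MVD was scarce, with a mean of 1.23 CPM in DMSO libraries. ACAT2, the thiolase of the first step, was at 45.5 to 48.6 CPM in DMSO and at 98.0 to 116 CPM in R1881 libraries, and GGPS1, which makes geranylgeranyl diphosphate for protein prenylation, at 70.9 to 86.3 and 139.7 to 164 CPM. Both were separated without overlap, with log2 fold changes of 1.17 and 0.97. The phosphomevalonate kinase PMVK rose least of the 8, by 0.35 (SE 0.079).

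Of the enzymes from squalene on, EBP, the sterol isomerase, and NSDHL, which takes part in stripping methyl groups from the sterol ring, rose most. EBP was at 14.9 to 19.0 CPM, with a median of 16.6, in DMSO and at 65.8 to 73.7 CPM, with a median of 70.3, in R1881 libraries. The log2 fold change of EBP was 2.06 (SE 0.043, adjusted p = 2.32e-43), with no overlap of the groups. NSDHL was at 11.4 to 15.4 CPM, with a median of 13.3, and at 49.8 to 55.5 CPM, with a median of 51.0, a log2 fold change of 1.96 (SE 0.055, adjusted p = 1.99e-37), again without overlap. FDFT1, the squalene synthase that commits isoprenoids to sterols, went from 68.2 to 76.7 CPM, with a median of 72.5, to 195 to 214 CPM, with a median of 201. All 9 R1881 libraries of FDFT1 lay above all 8 DMSO libraries, and its log2 fold change was 1.49 (SE 0.036, adjusted p = 1.53e-40). MSMO1, the methylsterol oxidase, rose by 1.83, DHCR7, the reductase that ends the Kandutsch-Russell branch, by 1.27, the lanosterol synthase LSS by 1.16, the desaturase SC5D by 1.15, the squalene epoxidase SQLE by 1.00 and the ketoreductase HSD17B7 by 0.80. HSD17B7 was at 4.51 to 6.40 CPM in DMSO and at 8.92 to 10.2 CPM in R1881 libraries. The exceptions were the 2 genes whose products reduce the same sterol double bond. LBR, which is also the lamin B receptor of the nuclear envelope, fell by 0.15 (SE 0.041) on the log2 scale, and TM7SF2 did not pass the test, at 0.16 (SE 0.10).

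In the SREBP control group, the largest rise was that of INSIG1, the sterol-dependent anchor of SCAP and itself an SREBP target. INSIG1 was at 70.9 to 86.6 CPM, with a median of 77.4, in DMSO and at 699.8 to 821 CPM, with a median of 752, in R1881 libraries. That is a 9.66-fold rise, with a log2 fold change of 3.27 (SE 0.053, adjusted p = 4.16e-49), the smallest adjusted p among the 30 genes in this comparison. Its relative INSIG2 was at 21.8 to 29.9 CPM, with a median of 25.1, in DMSO and at 21.6 to 27.9 CPM, with a median of 22.6, in R1881 libraries. The INSIG2 groups overlapped, and the log2 fold change of -0.11 did not pass the test. SREBF1, which encodes the SREBP-1 factors, was at 23.9 to 45.8 CPM, with a median of 33.5, with DMSO and at 90.8 to 185 CPM, with a median of 136, with R1881. The spread of SREBF1 was wide, with the largest SE of the 30 genes after CYP51A1 and MVD, but its groups did not overlap, and the log2 fold change was 2.06 (SE 0.16, adjusted p = 1.08e-17). SREBF2, which encodes SREBP-2, the main driver of sterol synthesis, was at 128 to 171 CPM with DMSO and at 231 to 292 CPM with R1881, a smaller rise of 0.75 (SE 0.052). The escort SCAP rose by 0.42 (SE 0.083), and its groups overlapped, at 47.8 to 72.7 and 68.4 to 91.4 CPM.

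Transport and efflux genes went in different directions. STARD4, a small cytosolic carrier of cholesterol, was at 4.44 to 6.59 CPM, with a median of 4.86, in DMSO and at 61.5 to 82.6 CPM, with a median of 69.7, in R1881 libraries. This was the largest log2 fold change of the 30 genes, at 3.78 (SE 0.078, adjusted p = 9.57e-44), or 13.8-fold. NPC1, which exports cholesterol from lysosomes, was at 17.0 to 22.0 CPM with DMSO and at 33.6 to 37.3 CPM with R1881, apart from each other, and rose by 0.86 (SE 0.049). ABCA1, which loads cholesterol onto apolipoproteins outside the cell, was at 19.4 to 24.9 CPM, with a median of 21.7, with DMSO and at 8.12 to 10.2 CPM, with a median of 9.45, with R1881. Every R1881 library of ABCA1 lay below every DMSO library, a log2 fold change of -1.22 (SE 0.061, adjusted p = 1.63e-25). The second exporter, ABCG1, lay on the other side, at 52.3 to 63.5 CPM, with a median of 56.9, with DMSO and at 76.1 to 81.2 CPM, with a median of 78.7, with R1881, and rose by 0.45 (SE 0.042). MYLIP, the ligase that marks lipoprotein receptors for degradation, was at 6.89 to 9.12 CPM with DMSO and at 5.68 to 8.06 CPM with R1881 and did not pass the test (-0.15, SE 0.073).

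**Figure D2:**
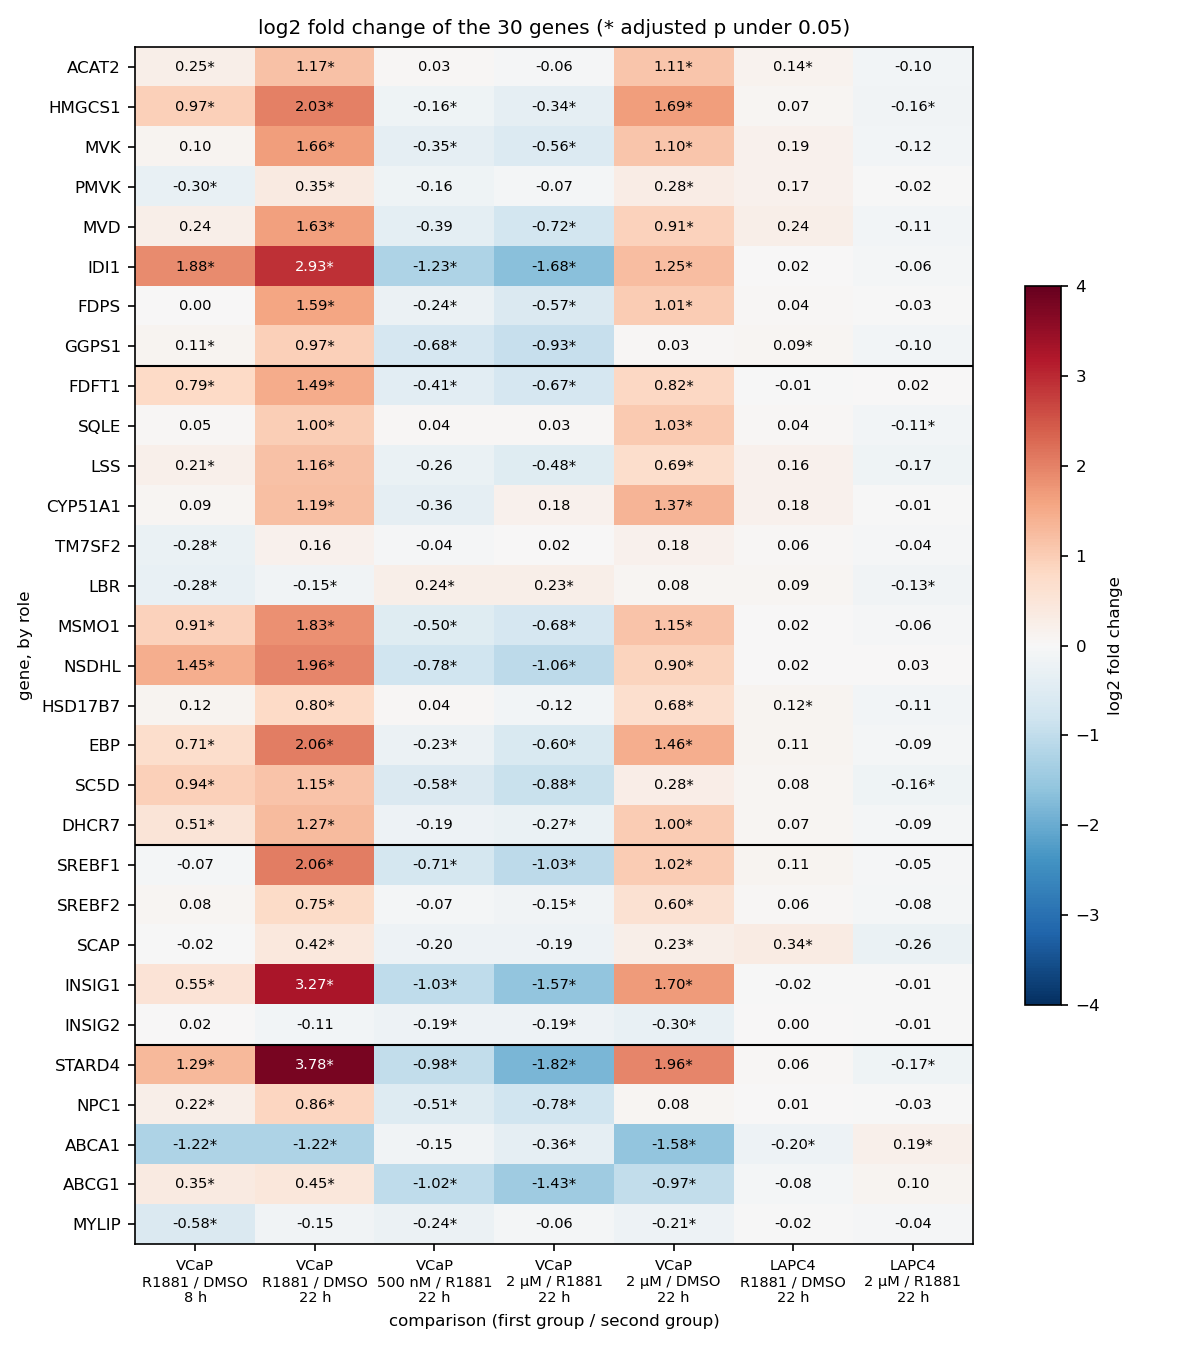
Log2 fold changes of the 30 genes (y axis, ordered by role) in 7 comparisons (x axis), with an asterisk where the adjusted p was under 0.05. The column of VCaP cells with R1881 for 22 h is almost wholly red, up to 3.78 for STARD4, and both LAPC4 columns are pale, between -0.26 and 0.34, both in SCAP.

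At 8 h the androgen response of VCaP cells covered fewer genes and was smaller in most of them. R1881 raised 15 of the 30 genes (up in 32.8% of all genes) and lowered 5 (down in 34.1%), with a median log2 fold change of 0.17 over the 30 and -0.034 over all genes. Every R1881 library lay above every DMSO library in 11 genes (in 17.4% of all genes) and below in 3 (in 14.6%). The 15 genes up at 8 h were all up at 22 h. IDI1 led at this time, with 52.8 to 64.6 CPM in DMSO and 189.6 to 240.3 CPM in R1881 libraries and a log2 fold change of 1.88 (SE 0.042, adjusted p = 5.88e-42). NSDHL followed at 1.45, with 9.74 to 14.1 CPM in DMSO and 32.1 to 37.3 CPM in R1881 libraries. STARD4, at 1.29, had 2.58 to 4.34 and 7.40 to 10.5 CPM. In these 3 genes no library of one group overlapped the other. HMGCS1 (0.97), SC5D (0.94), MSMO1 (0.91), FDFT1 (0.79) and EBP (0.71) rose by less.

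Several genes with large changes at 22 h did not pass the test at 8 h. SREBF1 was at 17.7 to 44.2 CPM with DMSO and at 19.4 to 41.6 CPM with R1881, a log2 fold change of -0.068 (SE 0.15). FDPS was at 36.6 to 42.6 and 35.9 to 43.8 CPM, with a log2 fold change that rounded to 0.00 (SE 0.036). SREBF2, MVK and SQLE were at 0.084, 0.10 and 0.048 on the log2 scale, with overlapping groups. INSIG1, the gene with the smallest adjusted p at 22 h, had risen by 0.55 (SE 0.047) at 8 h, with 40.7 to 48.9 CPM in DMSO and 58.3 to 82.0 CPM in R1881 libraries. Genes lowered at 8 h were ABCA1, MYLIP, PMVK, LBR and TM7SF2. ABCA1 was at 14.1 to 16.5 CPM with DMSO and at 5.22 to 7.30 CPM with R1881, a log2 fold change of -1.22 (SE 0.058). MYLIP was at 5.25 to 6.67 and 3.30 to 4.94 CPM, a log2 fold change of -0.58 (SE 0.071). In both genes all R1881 libraries lay below all DMSO libraries. PMVK was the 1 gene called down at 8 h (-0.30) and up at 22 h.

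The difference between the times was tested as an interaction of treatment and time. The R1881 effect differed in 26 of the 30 genes, and in each of the 26 it was more positive at 22 h than at 8 h (more positive in 28.1% of all genes). The median difference was 0.81 on the log2 scale, against -0.031 over all genes. INSIG1 (2.72, SE 0.068), STARD4 (2.49, SE 0.11) and SREBF1 (2.12, SE 0.21) differed most between the times. The 4 genes not called were ABCA1 (-0.0037), ABCG1 (0.099), INSIG2 (-0.13) and the scarce CYP51A1 (1.11, SE 0.56).

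**Figure D3:**
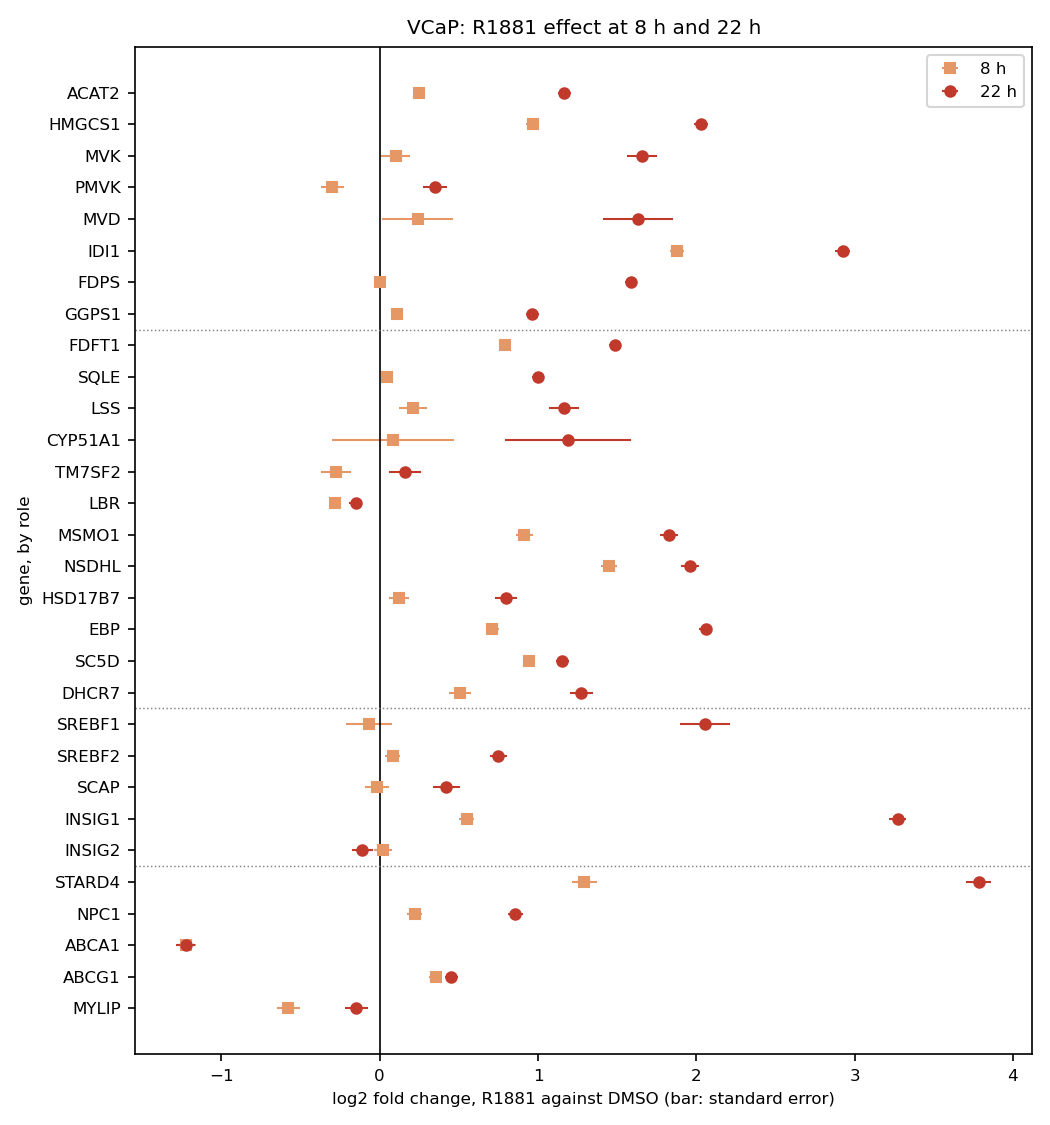
Log2 fold change of R1881 against DMSO in VCaP cells at 8 h (squares) and 22 h (circles) for the 30 genes, with standard errors. Most circles lie to the right of the squares, most widely in INSIG1, STARD4 and SREBF1, while the ABCA1 symbols coincide at -1.22.

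Vehicle-treated VCaP cells also changed with time in culture. Of the 30 genes, 19 differed between the times in DMSO libraries, each of them higher at 22 h (up in 15.9% of all genes), with a median log2 fold change of 0.24 over the 30 and -0.014 over all genes. ABCG1 was at 26.1 to 29.6 CPM at 8 h and at 52.3 to 63.5 CPM at 22 h, the largest rise of the 30 at 1.06 (SE 0.042). INSIG1 (0.77), STARD4 (0.51), ABCA1 (0.47) and LBR (0.42) followed.

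The next comparisons asked how far darolutamide set back the androgen response of the module in VCaP cells. They share the R1881 libraries with the comparisons above. At 22 h, 2 µM darolutamide lowered 21 of the 30 genes relative to R1881 alone (down in 30.8% of all genes) and raised 1, LBR (up in 36.1%), with a median log2 fold change of -0.52, against 0.058 over all genes. At 500 nM, 17 were lower (down in 26.4% of all genes) and LBR was again higher (up in 26.7%), with a median of -0.25 against 0.013. All libraries with darolutamide lay below all R1881 libraries in 15 genes at 2 µM (in 20.6% of all genes) and in 14 at 500 nM (in 18.3%). The doses compared directly gave 12 genes that differed, each lower at 2 µM (down in 9.75% of all genes). The 12 were IDI1, HMGCS1, FDPS, GGPS1, FDFT1, NSDHL, EBP, SC5D, INSIG1, STARD4, NPC1 and ABCG1. HMGCS1 no longer passed without low-dose replicate 2, at -0.17.

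The androgen responses of INSIG1, STARD4 and IDI1, the largest rises of the 30 genes, were cut back in order of dose without returning to the vehicle level. INSIG1 was at 353, 379, 366 and 381 CPM in the 4 low-dose libraries and at 242, 259, 241, 264 and 262 CPM in the 5 high-dose libraries. These levels lay between DMSO and R1881 with no overlap, and the log2 fold change of 2 µM against R1881 was -1.57 (SE 0.057, adjusted p = 2.73e-31). STARD4 was at 31.7, 36.1, 36.6 and 37.2 CPM with 500 nM and at 19.8, 19.5, 18.4, 21.8 and 19.6 CPM with 2 µM. It too lay in steps between R1881 and DMSO, and fell by 1.82 (SE 0.08) on the log2 scale at 2 µM. IDI1 was at 223, 247, 249 and 249 CPM with 500 nM and at 173, 176, 171, 184 and 182 CPM with 2 µM, and 2 µM against R1881 gave -1.68 (SE 0.053, adjusted p = 3.06e-34), the smallest adjusted p of the 30 in this comparison. Both doses left IDI1 apart from R1881 and from DMSO.

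HMGCS1 gave back less of its response. It was at 406, 447, 436 and 429 CPM with 500 nM and at 352, 380.3, 349, 407 and 398 CPM with 2 µM, a fall of 0.34 (SE 0.05) from R1881 on the log2 scale at 2 µM after a rise of 2.03. Its log2 fold change at 500 nM was -0.16 (SE 0.053, adjusted p = 0.0101) and did not pass without low-dose replicate 1 (-0.13). EBP was at 56.5, 57.3, 60.0 and 65.0 CPM with 500 nM and at 48.3, 46.5, 43.3, 48.0 and 44.7 CPM with 2 µM, and FDPS at 129, 126, 129 and 137 and 108, 103, 92.1, 112 and 102 CPM. At 2 µM they fell by 0.60 and 0.57 and stayed above every DMSO library. NSDHL was at 27.7, 28.8, 31.8 and 32.3 CPM with 500 nM and at 25.8, 25.9, 21.3, 24.6 and 26.7 CPM with 2 µM, and FDFT1 at 145, 152, 154 and 158 and 127, 127, 117, 139 and 127 CPM. Both fell in dose order and stayed above all DMSO libraries. NSDHL fell by 1.06, SC5D by 0.88, MSMO1 by 0.68, FDFT1 by 0.67, LSS by 0.48 and DHCR7 by 0.27 at 2 µM.

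Among the SREBP control genes, SREBF1 was at 92.6, 78.2, 82.2 and 98.8 CPM with 500 nM and at 70.5, 67.2, 103, 56.5 and 53.3 CPM with 2 µM. It fell by 1.03 (SE 0.17) at 2 µM. The doses overlapped only through the high-dose library at 103 CPM, and the other high-dose libraries lay below all low-dose libraries. The direct test of the doses did not call SREBF1 (-0.33, SE 0.20). SREBF2 was at 245, 235, 255, 237 and 215 CPM with 2 µM, within or below the R1881 range, a log2 fold change of -0.15 (SE 0.059, adjusted p = 0.0189) that did not pass without high-dose replicate 5 (-0.12). INSIG2, which did not pass the test with R1881 alone, was at 20.3, 21.3, 20.3, 19.8 and 21.1 CPM with 2 µM and fell by 0.19 (SE 0.074). NPC1 and GGPS1, the lysosomal exporter and the isoprenoid synthase, came closest to the vehicle level among the rises named here. NPC1 was at 20.4, 20.9, 18.6, 21.7 and 22.4 CPM and GGPS1 at 78.6, 82.4, 72.7, 82.7 and 82.6 CPM with 2 µM, both below all R1881 libraries and overlapping DMSO. Their log2 fold changes against R1881 were -0.78 (SE 0.056, adjusted p = 1.93e-18) and -0.93 (SE 0.048, adjusted p = 1.19e-24).

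Not all genes raised by R1881 were lowered by the antagonist at 22 h. SQLE was at 0.034 (SE 0.038), ACAT2 at -0.062 (SE 0.043), PMVK at -0.066 (SE 0.089), HSD17B7 at -0.12 (SE 0.075) and SCAP at -0.19 (SE 0.095) with 2 µM, and these did not pass the test. HSD17B7 passed without high-dose replicate 2 (-0.18) and SCAP without replicate 3 (-0.29). SQLE libraries held 243, 261, 242, 271 and 262 CPM with 2 µM, against 234 to 267 CPM with R1881 and 116 to 134 CPM with DMSO. ACAT2 libraries held 99.9, 103, 89.9, 107 and 105 CPM with 2 µM, within or below the 98.0 to 116 CPM of R1881 and above all DMSO libraries. The share of the R1881 effect taken back at 2 µM, on the log2 scale, was -3.41% in SQLE, 5.29% in ACAT2, 17.0% in HMGCS1, 48.0% in INSIG1, 48.1% in STARD4, 57.4% in IDI1, 76.1% in SC5D, 91.1% in NPC1 and 96.6% in GGPS1. Of the 27 genes that R1881 had changed, the lowest shares were -29.3% in ABCA1 and -14.9% in the scarce CYP51A1, and the highest were 153% in LBR and 315% in ABCG1. Over these 27 genes the median share was 27.3% at 500 nM and 40.9% at 2 µM.

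The exporters stood apart from this pattern. ABCG1 was at 36.4, 38.8, 39.9 and 40.0 CPM with 500 nM and at 30.8, 30.6, 28.7, 27.6 and 29.0 CPM with 2 µM, below not only R1881 (76.1 to 81.2) but also DMSO (52.3 to 63.5). Its log2 fold change was -1.43 (SE 0.052, adjusted p = 1.58e-31) at 2 µM against R1881 and -0.97 (SE 0.052, adjusted p = 2.01e-23) against DMSO. ABCA1, already lowered by R1881, was at 7.85, 8.02, 9.67 and 7.97 CPM with 500 nM and at 7.96, 5.69, 6.24, 7.67 and 8.90 CPM with 2 µM. With 2 µM ABCA1 fell further, by 0.36 (SE 0.074) from R1881 and by 1.58 (SE 0.075) from DMSO, and 1 of its 5 libraries lay within the R1881 range. At 500 nM its log2 fold change of -0.15 (SE 0.08, adjusted p = 0.0989) did not pass, and without low-dose replicate 3, the highest library, it was -0.24 and passed.

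Compared with DMSO instead, R1881 plus 2 µM darolutamide at 22 h still held 22 genes up (up in 30.5% of all genes) and 4 down (down in 28.5%), with a median log2 fold change of 0.86 over the 30 genes and 0.0058 over all genes. Among those still raised were STARD4 (1.96), INSIG1 (1.70), HMGCS1 (1.69), EBP (1.46) and IDI1 (1.25). Some of the 22 rises depended on single libraries. SCAP lost its call without high-dose replicate 1, 2, 3 or 4, without the filter on low counts and with control replicates 1 to 5 (0.14 to 0.24). PMVK (0.19) and CYP51A1 (0.75) lost theirs without high-dose replicate 3. GGPS1 (0.033, SE 0.048) and NPC1 (0.076, SE 0.057) did not pass this test. The 4 genes below the vehicle level were ABCA1, ABCG1, INSIG2 (-0.30, SE 0.075) and MYLIP (-0.21, SE 0.085), the last of which did not pass without high-dose replicate 5 (-0.20).

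**Figure D4:**
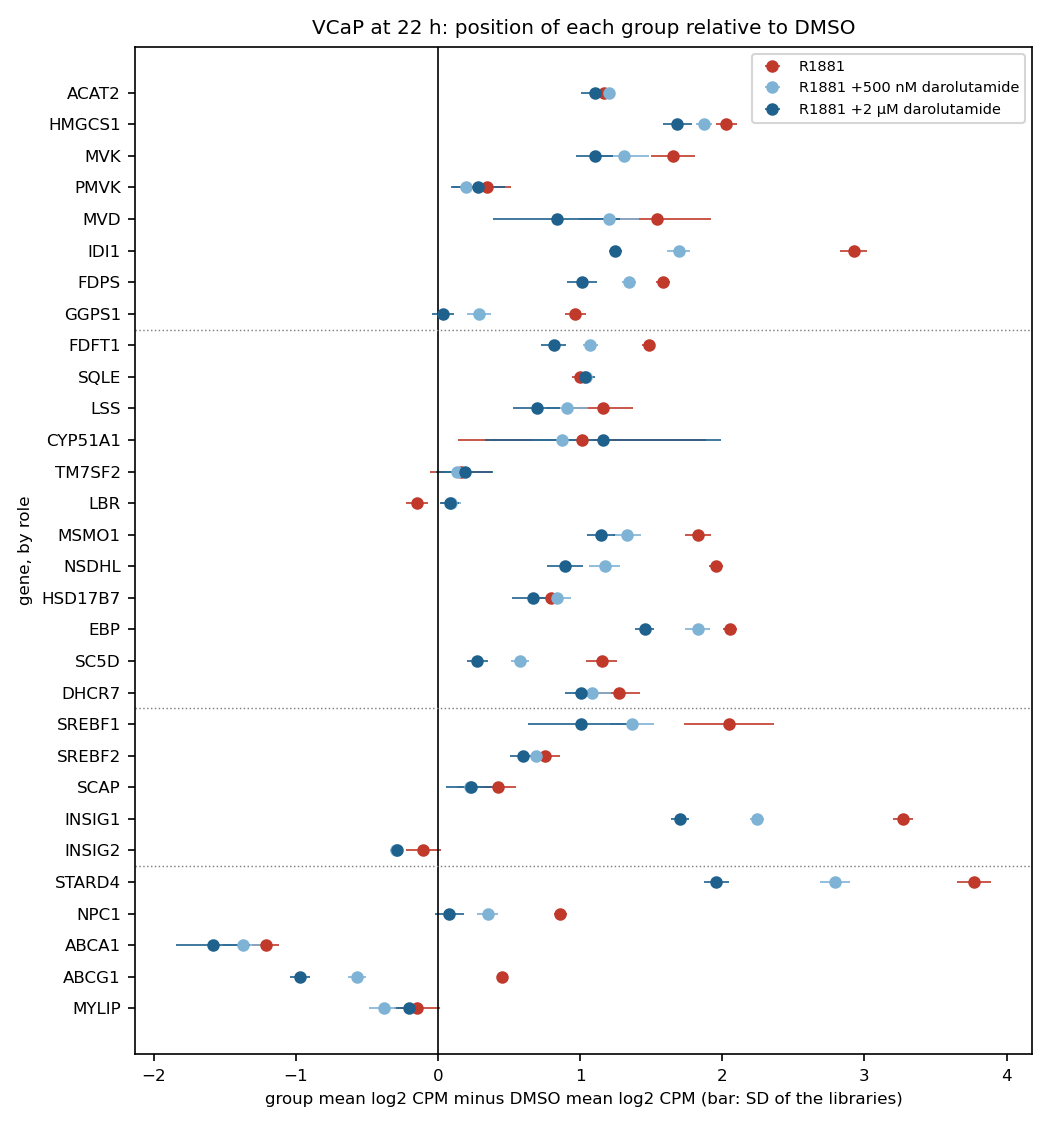
Group mean log2 CPM minus the DMSO mean in VCaP cells at 22 h for the 30 genes, with the SD of the libraries, for R1881 alone and with 500 nM or 2 µM darolutamide. In IDI1, INSIG1 and STARD4 the doses lie in order between R1881 and the zero line of DMSO, while ABCG1 with darolutamide and ABCA1 in all 3 groups lie left of it.

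At 8 h, 2 µM darolutamide lowered 15 of the 30 genes relative to R1881 (down in 26.2% of all genes) and raised LBR, ABCA1 and MYLIP (up in 25.9%), with a median log2 fold change of -0.23 against 0.014 over all genes. With 500 nM, 11 were lower (down in 15.7%) and LBR, ABCA1, MYLIP and ACAT2 were higher (up in 14.9%), and 10 genes were lower at 2 µM than at 500 nM (down in 10%). IDI1 was at 75.3, 84.6, 77.7, 84.5 and 81.2 CPM with 2 µM, between DMSO and R1881 without overlap, a log2 fold change against R1881 of -1.41 (SE 0.053, adjusted p = 1.6e-30). INSIG1 returned to 42.3, 45.6, 47.4, 50.6 and 42.9 CPM, with 4 of the 5 libraries inside the DMSO range (40.7 to 48.9), and fell by 0.55 (SE 0.058) from R1881. ABCA1 moved toward DMSO at this time, with 10.6, 11.7, 11.1, 10.8 and 10.9 CPM and a log2 fold change of 0.70 (SE 0.071, adjusted p = 9.37e-13) against R1881, in the direction opposite to that at 22 h. Whether the darolutamide effect on ABCA1 differed between the times was not tested. ABCG1 was again below both R1881 (-0.90, SE 0.052) and DMSO (-0.54, SE 0.052).

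Against DMSO at 8 h, 9 genes were still up with 2 µM (up in 15.4% of all genes) and 4 were down (down in 12%), and the median of the 30 was -0.025. STARD4 at 0.81, IDI1 at 0.47 and SC5D at 0.46 were the highest, and ABCG1, ABCA1 (-0.52), MYLIP (-0.28) and SQLE (-0.16) were the 4 below. The median share of the R1881 effect taken back at 8 h was 70.6% at 2 µM, over the 20 genes that R1881 had changed at that time. That set differs from the 27 genes at 22 h, and the shares were not tested against each other. STARD4 did not pass the test with 500 nM at 8 h, at 10.3, 9.45, 10.9 and 9.82 CPM against 7.40 to 10.5 CPM with R1881, a log2 difference of 0.21 (SE 0.092, adjusted p = 0.0833).

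In LAPC4 cells few genes of the module passed the test. At 22 h R1881 raised 4 of the 30 genes (up in 6.83% of all genes) and lowered 1 (down in 6.45%), with a median log2 fold change of 0.065 against 0.0067 over all genes, and the groups overlapped in all 30 (libraries all higher in 2.3% and all lower in 1.54% of all genes). ACAT2 was at 169 to 195 CPM, with a median of 173, with DMSO and at 186 to 207 CPM, with a median of 193, with R1881. The groups overlapped, and the log2 fold change was 0.14 (SE 0.031, adjusted p = 9.20e-04). SCAP was at 98.7 to 122 CPM, with a median of 112, and at 119.6 to 171 CPM, with a median of 140.5, a log2 fold change of 0.34 (SE 0.084, adjusted p = 0.00256). HSD17B7 was at 37.0 to 44.3 and 41.7 to 48.4 CPM (0.12, SE 0.035), and GGPS1 at 195 to 227 and 208 to 240.2 CPM (0.093, SE 0.033). ABCA1 was the gene that fell. It was at 57.6 to 72.1 CPM, with a median of 63.0, with DMSO and at 48.8 to 60.1 CPM, with a median of 56.2, with R1881, a log2 fold change of -0.20 (SE 0.045, adjusted p = 6.72e-04). It had the smallest adjusted p of the 30 genes in this comparison and was the 1 gene lowered by R1881 in both lines. INSIG1 (-0.024, SE 0.025), IDI1 (0.017, SE 0.036), SREBF1 (0.11, SE 0.17) and STARD4 (0.061, SE 0.051) did not pass the test. INSIG1 libraries held 579 to 649 CPM, with a median of 588, with DMSO and 564 to 626 CPM, with a median of 591, with R1881, and IDI1 libraries 209 to 241 and 209 to 243 CPM. For these genes the 2 groups covered nearly the same range. The count of 5 depended on the libraries and the model. It was 2 with control replicates 1 to 5, 1 with replicates 6 and above, and 13 with a covariate for the GC slope of each library. The calls over all genes moved as well, from 2418 to 1638, 863 and 4080 under the same settings. With control replicates 1 to 5 the calls of ABCA1 (-0.11), SCAP, HSD17B7 and GGPS1 were lost. With replicates 6 and above those of ACAT2, SCAP, HSD17B7 and GGPS1 were lost. GGPS1 was near the threshold (adjusted p = 0.0492 by edgeR) and was not called by DESeq2, run as an alternative.

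Darolutamide at 2 µM changed 6 genes in LAPC4 cells at 22 h, and raised ABCA1 alone (up in 5% of all genes) while it lowered 5 (down in 5.47%), namely HMGCS1 (-0.16), SC5D (-0.16), STARD4 (-0.17), LBR (-0.13) and SQLE (-0.11). ABCA1 was at 62.2, 67.5, 57.1, 68.5 and 60.6 CPM with 2 µM, a log2 fold change of 0.19 (SE 0.05, adjusted p = 0.00469) against R1881, with 4 of 5 libraries above the R1881 range. This call was lost with control replicates 1 to 5, at 0.14. At 500 nM ABCA1 was again higher (up in 2.68% of all genes), by 0.27 (SE 0.05), with 63.6, 70.3, 64.0, 68.6 and 65.6 CPM, all above the R1881 range of 48.8 to 60.1. HMGCS1, SQLE, SC5D, ACAT2 and LBR were lower (down in 3.21%), between -0.18 and -0.12. HMGCS1 was at 733, 786, 749, 775 and 719.8 CPM with 500 nM and at 752, 785, 729.9, 836 and 711 CPM with 2 µM, against 802 to 921 CPM with R1881. Calls of LBR, SQLE, STARD4 and SC5D were lost when single libraries were left out, and without high-dose replicate 3 or replicate 5 the count at 2 µM was 3, and with the GC covariate the counts were 16 at 2 µM and 14 at 500 nM (over all genes, 3655 in place of 1906 and 2250 in place of 1072).

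In 7 further LAPC4 comparisons no module gene was called by edgeR or, as an alternative, by DESeq2. These were 2 µM against 500 nM at 22 h (0.258% of all genes called in either direction, and 0 of the 30 genes at an unadjusted p under 0.05), 2 µM with R1881 against DMSO at 22 h (0.0165% and 1 gene), R1881 against DMSO at 8 h (2.64% and 4 genes), 2 µM against R1881 at 8 h (1.54% and 4 genes), 500 nM against R1881 at 8 h (0.626% and 2 genes), 2 µM against 500 nM at 8 h (0.0275% and 0 genes) and 2 µM with R1881 against DMSO at 8 h (0.011% and 1 gene). The interaction of R1881 and time gave 0 genes by both tools as well (3.21% of all genes, and 4 of the 30 at an unadjusted p under 0.05). With the GC covariate, 2, 4, 2 and 1 genes were called at 8 h for R1881, for 2 µM and 500 nM against R1881 and for 2 µM against DMSO, and 7 in the interaction.

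More module genes changed with time in culture than with R1881 in LAPC4 cells. From 8 to 22 h in DMSO, 12 of the 30 genes rose (up in 10.7% of all genes) and 3 fell (down in 11.4%). MSMO1 (0.50, SE 0.037), HMGCS1 (0.41, SE 0.034), STARD4 (0.37, SE 0.051), SQLE (0.32), INSIG1 (0.30) and FDFT1 (0.29) rose most. HMGCS1 was at 572 to 647 CPM at 8 h and at 761 to 892 CPM at 22 h, without overlap. ABCG1 fell, with 57.6 to 71.6 CPM at 8 h and 46.2 to 53.4 CPM at 22 h (-0.41, SE 0.046), whereas it had risen in VCaP cells, and LBR (-0.19) and MYLIP (-0.13) fell as well. Whether the time effect differed between the lines was not tested. With DMSO replicates 6 and above the count was 9 in place of 15 (over all genes, 1390 in place of 4020), and with the GC covariate 23 (6693 over all genes).

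The R1881 effect itself was compared between the lines at 22 h by an interaction of treatment and line over the 16578 genes tested in both. It was called more positive in VCaP cells for 22 of the 30 genes (up in 31.6% of all genes) and more negative for 3 (down in 36.9%), with a median difference of 0.97 on the log2 scale against -0.052 over all genes. STARD4 (3.66, SE 0.095), INSIG1 (3.24, SE 0.058) and IDI1 (2.85, SE 0.064) differed most, and ABCA1 (-1.08, SE 0.08), LBR (-0.30) and MYLIP (-0.18) were the 3 negative ones. The MYLIP difference did not pass without the filter on low counts, with either set of control replicates or in the fit of only the compared groups, at -0.20 to -0.062. The difference did not pass the test for PMVK, CYP51A1, TM7SF2, SCAP and INSIG2.

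The lines also started from different levels. In DMSO at 22 h every LAPC4 library lay above every VCaP library for 24 of the 30 genes, and below for LBR, with a median ratio of mean CPM of 3.62 over the 30. Over all 16578 genes tested in both lines, 44.9% lay wholly higher and 24.5% wholly lower in LAPC4 cells, and the median ratio was 1.27. The ratio was 13.7 in STARD4, 13.5 in FDFT1, 7.79 in INSIG1, 7.36 in MYLIP and 6.91 in HMGCS1, and reached 36.0 in the scarce MVD. With R1881 at 22 h the median ratio was 1.44, and 16 genes had all LAPC4 libraries higher, 7 all lower and 7 overlapping, against 40.5%, 23.9% and 35.6% of all genes and a median ratio of 1.22 over them. INSIG1 means were 77.9 and 754 CPM in VCaP cells with DMSO and R1881, and 607 and 597 CPM in LAPC4 cells. STARD4 and EBP, at means of 70.0 and 69.9 CPM in VCaP cells with R1881, overlapped the LAPC4 libraries with R1881 (72.3 and 70.4 CPM), and IDI1 exceeded them. CPM values were scaled within each line, and these levels are a description without a test.

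Levels of different genes can be compared only per length of exon, as RPKM (CPM divided by exon length in kilobases). The length is that of all annotated exons of a gene together, from 1002 bases in PMVK to 11343 in ABCA1. It is not the length of the transcript that the cells express, so the order of genes depends on the annotation. In VCaP cells with DMSO at 22 h, PMVK (57.2 RPKM), TM7SF2 (45.1) and LBR (33.8) were the highest of the 30. With R1881 the order was headed by INSIG1 (207 RPKM), IDI1 (132) and MSMO1 (87.5). In LAPC4 cells FDFT1 and INSIG1 were the highest with DMSO (193 and 166 RPKM) and with R1881 (191 and 163 RPKM).

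**Figure D5:**
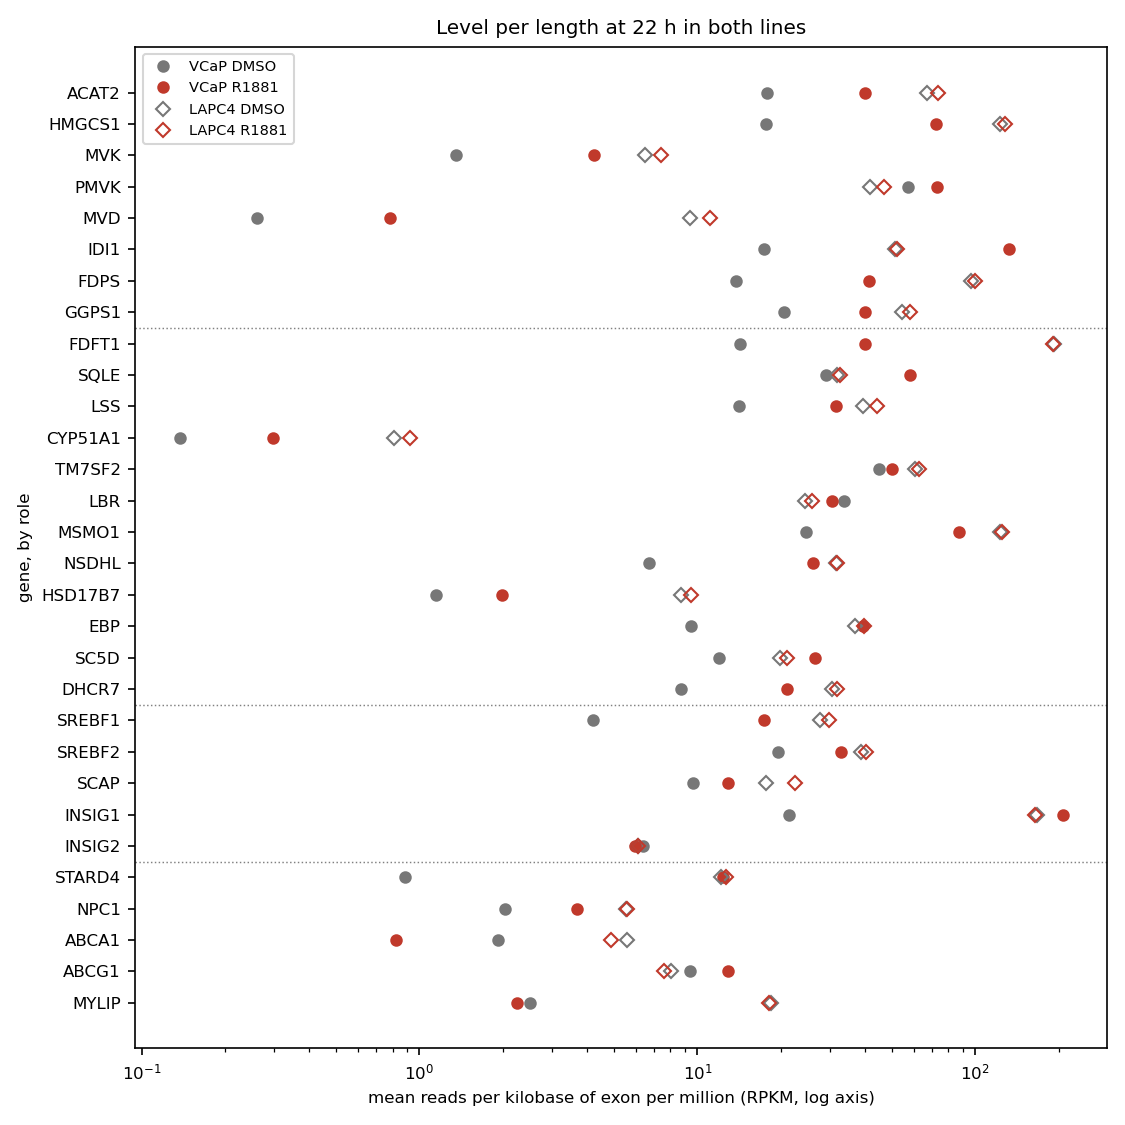
Mean level per length at 22 h of the 30 genes (y axis, by role) in RPKM on a log axis, for VCaP (filled circles) and LAPC4 (open diamonds) with DMSO (grey) or R1881 (red). Grey and red circles of VCaP cells are far apart in STARD4, INSIG1 and IDI1, while the diamonds of LAPC4 cells nearly coincide, and CYP51A1 is lowest in every group.

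CYP51A1, the lanosterol demethylase, was counted at 2 to 75 reads per VCaP library and 14 to 209 per LAPC4 library, and is therefore uncertain. Genes named as its processed pseudogenes, which carry near copies of its transcript, held more reads. CYP51A1P1 had 148 to 733 and CYP51A1P2 199 to 961 reads in VCaP libraries, and 580 to 1406 and 799 to 1953 in LAPC4 libraries. In VCaP cells at 22 h, R1881 raised CYP51A1 by 1.19 (SE 0.40), CYP51A1P1 by 1.17 (SE 0.065) and CYP51A1P2 by 1.16 (SE 0.062). The 3 values lay within their standard errors of each other, and with 2 µM darolutamide the pseudogenes fell by 0.23 and 0.29 from R1881. Which of these loci the reads came from cannot be told apart with single reads of near-identical sequence. HSD17B7 has a near copy as well, HSD17B7P2, which rose by 0.80 (SE 0.089) beside 0.80 for HSD17B7.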

How the data were processed

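The authors deposited one table of raw counts per gene for 112 libraries (55 VCaP, 57 LAPC4). Per the labels and the methods, single reads from a stranded poly(A) kit were demultiplexed with bcl2fastq 2.17, aligned with STAR to GRCh38 and counted per gene with featureCounts of Subread, and the authors tested with DESeq2. The annotation release and the strand setting of the counting are not given in the sources used here, so overlapping and antisense genes are uncertain. The total counts of 12188455 to 25201678 per library set the precision of scarce genes such as CYP51A1. Groups were taken from the labels.

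Counts were tested with edgeR 4.0.16 in R 4.3.3 (quasi-likelihood F-test, TMM library sizes, 1 fit per line over 8 groups, and 1 fit over both lines for the line interaction). A gene was kept in a line where 4 or more libraries had 10 or more reads, p-values were adjusted by Benjamini-Hochberg over all of them, and 0.05 was the threshold. Levels are CPM on TMM library sizes, log2 levels used a prior count of 2, and RPKM was divided by the length of all annotated exons together. Scripts were tested on simulated data first. The alternatives were DESeq2 1.42.0, RLE size factors, no filter, control replicates 1 to 5 or 6 and above, fits of only the compared groups, a replicate block, a covariate for the slope that log2 CPM had on gene GC content in each library (84.6% of VCaP and 84.2% of LAPC4 genes had a GC value), both together, and each darolutamide library left out in turn.

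Libraries with the same replicate number deviated together little on average (mean correlation of deviations from the group means -0.00511 over 149 VCaP pairs and 0.0549 over 161 LAPC4 pairs). Pairs with other numbers had means of 0.000668 and -0.00717. Single pairs with the same number ran from -0.501 to 0.455 in VCaP and from -0.573 to 0.597 in LAPC4 cells. The numbers were not used to pair libraries in the main fits. With the replicate block, LAPC4 calls over all genes for 2 µM with R1881 against DMSO at 22 h went from 3 to 171. No pair of replicates agreed within sampling noise. The 30 genes and the lists were chosen with earlier results of these data known. Some genes of the pathway are not reported here. Levels by library were given by rule for the 8 genes with the smallest adjusted p of R1881 in VCaP cells at 22 h, for 5 in LAPC4 cells and for the control, transport and efflux genes, and some further levels were added after the values were seen.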

Additional observations from a re-analysis of the deposited data

Results flagged for a closer look

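Single libraries stood far from the others of their group (Dixon's test at its 95% critical value) in 12 of 304 groups of 4 to 10 libraries, over the 19 genes whose levels were given by rule. That is 3.95%, and chance finds about 1 in 20. In VCaP cells, IDI1 was at 222.9 CPM in replicate 1 with 500 nM darolutamide at 22 h (others 246.84 to 249.38), and HMGCS1 at 84.43 CPM in DMSO replicate 6 at 8 h (others 93.69 to 104.83). NSDHL was at 9.739 CPM in DMSO replicate 1 at 8 h (others 11.98 to 14.13). ABCA1 was at 5.216 CPM in R1881 replicate 1 at 8 h and at 9.674 CPM in replicate 3 with 500 nM at 22 h, and NPC1 at 15.96 CPM in replicate 2 with 500 nM at 8 h. In LAPC4 cells, FDPS was at 347.4 CPM and ACAT2 at 183.1 CPM in replicate 2 with 500 nM at 8 h, NSDHL at 62.06 CPM in replicate 4 with 2 µM at 22 h, ACAT2 at 195.7 CPM in R1881 replicate 9 at 8 h, NPC1 at 61.78 CPM in DMSO replicate 5 at 8 h and ABCG1 at 52.72 CPM in replicate 2 with 2 µM at 8 h.

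The effect of R1881 at 22 h differed between VCaP and LAPC4 cells in 25 of the 30 genes by the interaction test (more positive in 31.6% and more negative in 36.9% of all genes). The VCaP effect minus the LAPC4 effect, on the log2 scale, was 3.66 in STARD4, 3.24 in INSIG1, 2.85 in IDI1, 1.90 in HMGCS1, 1.90 in EBP, 1.89 in SREBF1, 1.89 in NSDHL, 1.49 in FDPS and 1.44 in FDFT1. It was 0.97 in ACAT2, 0.81 in GGPS1, 0.79 in NPC1, 0.63 in SREBF2, 0.62 in HSD17B7, 0.48 in ABCG1, -0.18 in MYLIP and -1.08 in ABCA1.

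The R1881 effect of VCaP cells differed between 22 and 8 h in 26 of the 30 genes by the same kind of test, each more positive at 22 h (more positive in 28.1% of all genes). The 22 h effect minus the 8 h effect was 2.72 in INSIG1, 2.49 in STARD4, 2.12 in SREBF1, 1.58 in FDPS, 1.35 in EBP, 1.06 in HMGCS1, 1.05 in IDI1, 0.92 in ACAT2 and 0.86 in GGPS1. It was 0.69 in FDFT1, 0.67 in HSD17B7, 0.67 in SREBF2, 0.64 in NPC1, 0.51 in NSDHL, 0.44 in SCAP and 0.43 in MYLIP.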

How the results depend on the processing

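In VCaP cells every count of module genes called stayed within 1.5 times under every alternative run, except the 12 genes lower at 2 µM than at 500 nM at 22 h, which became 19 with the GC slope covariate and 19 with the replicate block and the GC covariate together. With the replicate block, R1881 changed 27 genes at 22 h and 20 at 8 h. The LAPC4 counts depended on the model, and so did the LAPC4 calls over all genes. The 5 genes called for R1881 at 22 h became 3 without the filter, 2 with control replicates 1 to 5, 1 with replicates 6 and above, 13 with the GC covariate and 12 with block and GC, while the calls over all genes went from 2418 to 1861, 1638, 863, 4080 and 4184. The 6 genes called for 2 µM against R1881 at 22 h became 3 without the filter, 16 with GC and 14 with block and GC (1906, 1456, 3655 and 4875 over all genes), and 3 to 9 when single libraries were left out. The 6 genes called for 500 nM became 2 without the filter, 14 with GC and 11 with block and GC (1072, 781, 2250 and 3048 over all genes). The 15 genes that differed between the times in DMSO became 9 with replicates 6 and above, 23 with GC and 23 with block and GC (4020, 1390, 6693 and 6909 over all genes). Where no LAPC4 gene was called, the block alone gave 1 for R1881 at 8 h, 1 for 2 µM against R1881 at 8 h and 1 for the R1881 effect by time, which was also 1 in the fit of only the compared groups. GC gave 2, 4, 2, 1 and 7 for R1881, 2 µM and 500 nM against R1881 and 2 µM against DMSO at 8 h and for the R1881 effect by time, and block with GC gave 5, 8, 4, 3 and 9, and 4 for 2 µM against DMSO at 22 h. Replicates 6 and above gave 1 for each dose against R1881 at 8 h. The causes were not tested.

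Of the gene results under alternatives, 9255 kept their side of the threshold, 238 gained a call, 130 lost one and 7 changed sign. The 7 were SCAP with time in VCaP DMSO (0.085 with GC), TM7SF2 with R1881 at 22 h in LAPC4 (-0.053 with GC, -0.051 with block and GC), LSS with R1881 at 8 h in LAPC4 (0.067 under both) and MVK with time in LAPC4 DMSO (0.081 and 0.087). When single darolutamide libraries were left out, 12 VCaP and 4 LAPC4 genes lost a call in at least 1 fit. No alternative moved the median of all genes by 0.1 or more on the log2 scale. Scarce genes (CYP51A1, MVD) and darolutamide groups of 4 or 5 libraries limit the precision.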

Other observations

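Other genes of the pathway, from lists that are not part of the 30, were tested for R1881 in VCaP cells at 22 h, where 37.4% of all genes rose and 40% fell. Of 15 genes of the synthesis and isoprenoid branches, 10 rose, 2 fell and 3 did not pass the test. FAXDC2 (-1.29) and PDSS2 (-0.70), a subunit of the synthase of the ubiquinone side chain, were the 2 that fell.

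Of 10 genes of SREBP processing and sterol sensing, 4 rose and 4 fell, near the shares over all genes, with a median log2 fold change of -0.018 against -0.034 over all genes. Among them were RNF145 (0.98) and ERLIN2 (-0.88). Of 14 tested genes of transport, esters and uptake, 8 rose, led by STARD3NL (1.16) and with the cholesterol acyltransferase SOAT1 at 0.71, and 4 fell, among them the sterol carriers GRAMD1C (-2.83) and GRAMD1B (-0.99). Of 5 tested liver X receptor and oxysterol genes, 3 rose, LPCAT3 most (1.19), and the hydroxylase CYP7B1 fell (-1.12). In LAPC4 cells at 22 h the counts that rose and fell by the same edgeR test were 2 and 1 of 14, 2 and 0 of 10, 4 and 3 of 13, and 0 and 0 of 4 in the same order of lists, where 6.83% of all genes rose and 6.45% fell.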
